A study of Mus musculus with 16 samples.

Results

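The genes described here encode the nuclear part of the oxidative phosphorylation machinery, and they were followed across 16 MC38 tumors. Members were the protein-coding genes of the count table whose symbol starts with Ndufa, Ndufb, Ndufc, Ndufs, Ndufv, Uqcr, Cox4, Cox5, Cox6, Cox7, Cox8 or Atp5, together with Sdha, Sdhb, Sdhc, Sdhd, Cyc1 and Cycs. This rule found 95 of the 53465 genes in the table, and it used names only and no measured value. A further 13 genes with such names are not protein-coding and were left out. By the roles these genes are known for, 36 members belong to complex I, 4 to complex II, 9 to complex III, 20 to complex IV and 16 to complex V. The other members are Cycs, 8 assembly factors of complex I that share the Ndufa prefix (Ndufaf genes), and Atp5s, a factor associated with ATP synthase. Of the 95, 93 passed the filter on low counts. Cox7b2 and Cox8c did not.

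MC38 is a mouse colon carcinoma cell line, and all tumors grew from cells injected under the skin of the right flank of female C57BL/6 mice aged 6 to 8 weeks. Tumors of 150 to 250 mm3 on day 16 were treated with 200 µg of control IgG or of aPD-1, an antibody against the checkpoint receptor PD-1, on days 16 and 20, and were taken on day 21. The 8 IgG control tumors are replicates 1 to 8, the 6 aPD-1 non-responder tumors are replicates 9 to 14, and the 2 aPD-1 responder tumors are replicates 15 and 16. Each tumor came from another mouse, all carried the same cell line, and no tumor was untreated. The study named responders by CD8 T cell staining of the same tumors, so that group was set by a readout and not by random allocation. Poly(A) RNA of fresh frozen sections was sequenced, so every value is a mix of tumor cells and the host cells around them. In such bulk samples, fewer cells of a type and less RNA per cell cannot be told apart.

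Oxidative phosphorylation passes electrons from NADH through complex I, or from succinate through complex II, to ubiquinone, then through complex III, cytochrome c and complex IV to oxygen. Complexes I, III and IV pump protons across the inner mitochondrial membrane, and complex V, the ATP synthase, uses the return flow to make ATP. Complex II is encoded wholly in the nucleus. The other 4 complexes combine nuclear subunits with the 13 proteins encoded by mitochondrial DNA, which is why the members were also set against the mitochondrial share of counts.

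Expression is given as CPM, the count of a gene relative to the TMM-scaled library size and so comparable between tumors of different depth. A gene passed when edgeR's quasi-likelihood test gave a Benjamini-Hochberg adjusted p below 0.05 over all genes tested. Total counts ranged from 26603477 to 39948874 per tumor. The 3 libraries of replicates 1, 9 and 14 stood apart from the rest, with mitochondrial genes at 7.60%, 6.00% and 5.74% of counts against 2.52% to 3.25% in the other 13. These 3 also had the lowest total counts, 26603477, 30978320 and 29062839 in that order, against at least 31724396 in the other 13. Replicate 3 stood apart too, with a TMM factor of 0.784 and members at only 0.723% of nuclear counts, the lowest of the 16. Its 13 mitochondrial protein-coding genes held 1.84% of counts while all mitochondrial genes held 3.21%. Several host cell markers were higher in responder tumors. All 5 T cell, all 5 B cell and all 5 adipocyte markers were higher in them than in non-responders, as were 1 of 5 macrophage, 1 of 5 fibroblast and 2 of 4 endothelial markers, while 0 of 8 skeletal muscle and 0 of 4 keratinocyte markers passed. The summed T cell markers reached 172.5 and 162.1 CPM in responders against 6.60 to 25.6 CPM elsewhere, and the adipocyte sums reached 551.9 and 101.4 CPM against 0.300 to 27.9 CPM. Colon epithelial markers, which would mark the tissue of origin of the line, summed to only 4.67 to 12.5 CPM over 8 genes in the 14 IgG and non-responder tumors, against 116.9 and 50.7 CPM in responders, where 5 of the 6 tested were higher. The part of these cells in the results below was not tested.

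Promoters of respiratory chain genes are known for sites of the nuclear respiratory factors NRF1 and NRF2 (GABP, of the ETS family). Of the 95 members, 75 had a promoter window in RefSeq (build GRCm38.p6), running from 250 bases before to 50 bases after the start. The NRF1 core GCGCATGC, on either strand, was in the windows of 13 of the 75 members, or 17.3%, and of 3.05% of all 27025 genes with a window. The ETS core CCGGAAG, on either strand, was in those of 18 members, or 24%, against 9.93% of all genes. For comparison, TATAAA was in 9.33% of member windows and in 15.7% of all. The motifs can overlap with each other, and a match describes letters, not a bound site. The 4 sequences below show the 100 bases before the start, with the matches in capitals. Cycs and Uqcr11 passed as lower in responders, Atp5g2 is a complex V gene low in the 3 tumors of high mitochondrial share, and Cox6a1 is the common partner of the muscle isoform Cox6a2. Cycs lies at chr6:50566570-50566669, Uqcr11 at chr10:80406822-80406921, Atp5g2 at chr15:102671048-102671147 and Cox6a1 at chr5:115348959-115349058, all on the minus strand.
Cycs: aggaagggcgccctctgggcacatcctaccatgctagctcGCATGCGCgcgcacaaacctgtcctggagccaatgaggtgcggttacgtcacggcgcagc
Atp5g2: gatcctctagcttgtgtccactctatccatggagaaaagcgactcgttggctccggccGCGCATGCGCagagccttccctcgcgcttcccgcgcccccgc
Uqcr11: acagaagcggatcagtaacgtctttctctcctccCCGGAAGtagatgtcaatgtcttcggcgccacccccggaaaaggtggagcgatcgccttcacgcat
Cox6a1: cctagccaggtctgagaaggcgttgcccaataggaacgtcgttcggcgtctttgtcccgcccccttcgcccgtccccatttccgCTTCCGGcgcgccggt

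The Cycs match starts 60 bases before the start and is the NRF1 core on the opposite strand, while in Atp5g2 both strands match in overlap. Of the 11 members with a window that passed as lower in responders against non-responders, 4 held either core (Ndufaf8, Uqcr11, Cox8a and Cycs), against 22 of the 64 others.

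Levels differed widely between members. Per kilobase of the principal transcript, the mean over 16 tumors was 487 CPM for Cox6c and 421 CPM for Cox4i1, both subunits of cytochrome c oxidase, and 486 CPM for Atp5b, the catalytic beta subunit of ATP synthase. The highest of complex I was Ndufb8, an accessory subunit, at 153 CPM per kilobase, and the highest of complex III was Uqcrh, the hinge protein that meets cytochrome c, at 209 CPM per kilobase. The medians by complex were 60.0 for complex I, 72.4 for complex II, 87.5 for complex III, 109 for complex IV and 201 for complex V, all in CPM per kilobase. Assembly factors were lower, with a median of 12 CPM per kilobase. The coefficient of variation over the 16 tumors had a median of 16.2% among tested members. The steadiest was Atp5g3, which encodes subunit c of the ATP synthase rotor, at 6.34%, and the most variable was the muscle isoform Cox8b at 232%.

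**Figure D1:**
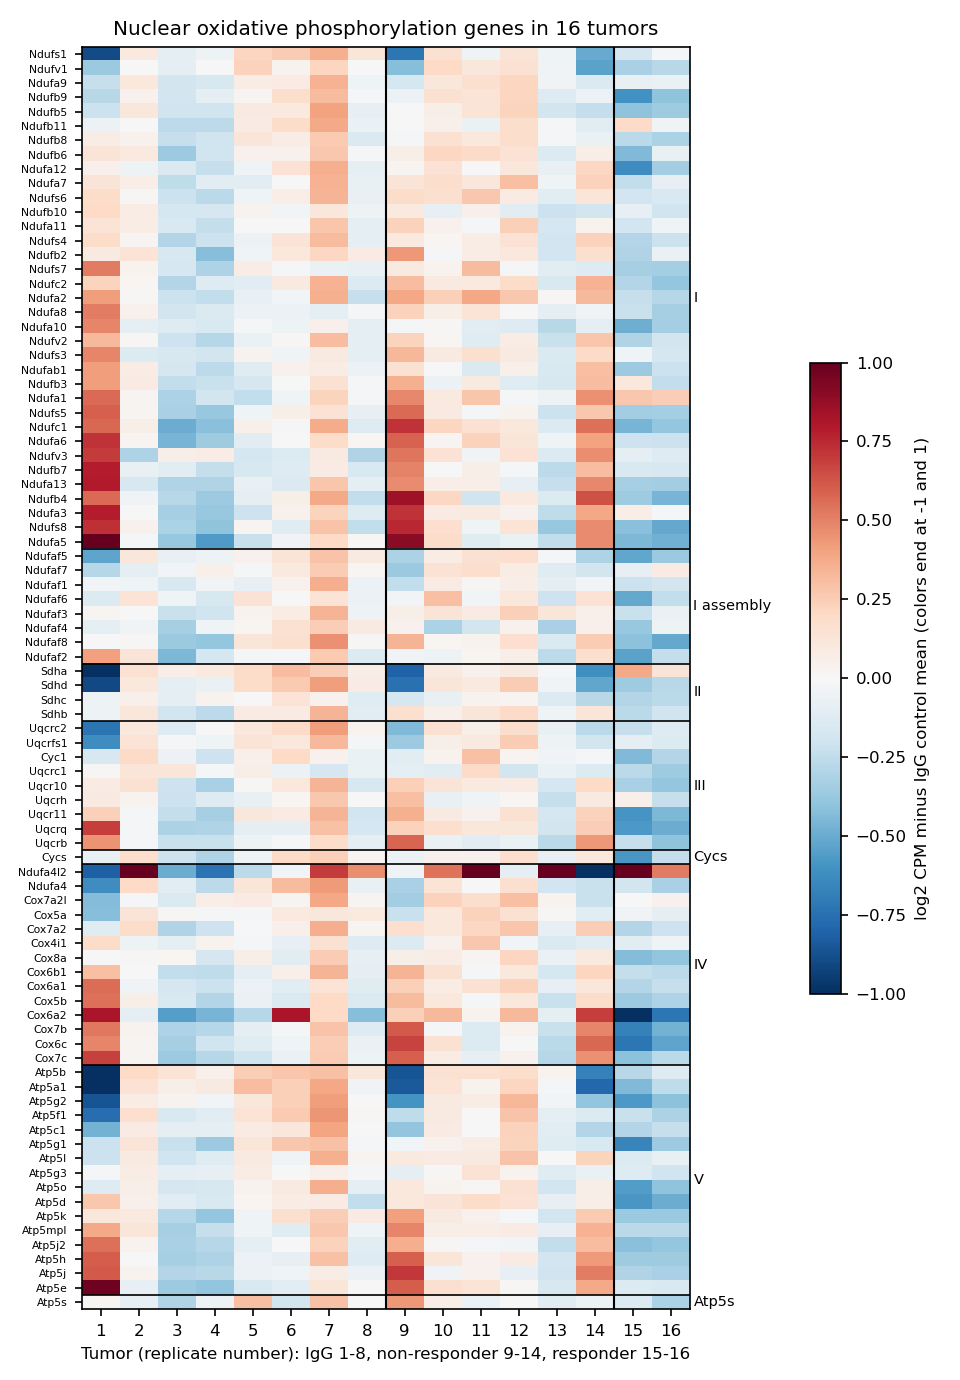
Level of 88 tested members with a mean of at least 1 CPM per kilobase, as log2 CPM minus the mean of the IgG control tumors (color, ending at -1 and 1). Columns are the 16 tumors, rows are genes ordered within each complex by their slope on the mitochondrial to nuclear count ratio. Replicates 1, 9 and 14 are high for many complex I genes and low for Sdha, Sdhd, Atp5b and Atp5a1, and the responders, 15 and 16, are low for most members.

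The first comparison asked how members differ between aPD-1 responder and non-responder tumors. Of the 93 members tested, 17 were lower in responders and 0 were higher, by edgeR's quasi-likelihood test. Over all 18251 genes tested, 4.34% were lower and 15.4% were higher. The median log2 change was -0.33 over members and 0.02 over all genes, and 84 of 93 members lay below 0. At an unadjusted p below 0.05, 41 were lower and 2 higher, against 10.4% and 20.8% of all genes. DESeq2 called 23 lower and 1 higher, the latter being Cox8b, against 6.52% and 15.9% of all genes. Cox8b held 43 and 11 counts in responders, 104 in IgG control replicate 6 and at most 6 in every other tumor. It passed the low-count filter only through the tumors where it was high. Both responders lay below all 6 non-responders for 51 members, which 13.2% of all genes did. They lay below all 14 other tumors for 30 members, which 7.84% of all genes did. In the other direction, both lay above all 6 non-responders for 3 members and above all 14 other tumors for 1. The shares of all genes lying above were not counted.

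Changes of passing members were modest, from -0.40 to -1.42 on the log2 scale. They came from complex I (Ndufa12, Ndufb9, Ndufc2, Ndufa2), complex III (Uqcr11, Cyc1, Uqcrq, Uqcr10), complex IV (Cox8a, Cox6a2, Cox6c, Cox7b) and complex V (Atp5d, Atp5o, Atp5g1), with Cycs and the assembly factor Ndufaf8. No complex II gene passed. Sdha went the other way, at 212.6 and 179.3 CPM in responders against 93.2 to 174.5 CPM in non-responders. The low values, 93.2 and 106.8 CPM, are replicates 9 and 14 of high mitochondrial share, and the other non-responders were at 161.4 to 174.5 CPM. IgG controls other than replicate 1 were at 170.2 to 202.3 CPM and overlapped the responders. By complex, 4 of 36, 0 of 4, 4 of 9, 4 of 18 and 3 of 16 tested members of complexes I to V were lower. The medians were -0.33, -0.20, -0.40, -0.28 and -0.44 on the log2 scale.

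The smallest p belonged to Atp5d, which encodes the delta subunit of the ATP synthase central stalk (chromosome 10, 80138632 to 80145818, GRCm38). Atp5d stood at 110.9 and 117.6 CPM in the responders. Non-responders ranged from 156.4 to 187.8 CPM with a median of 179.6, and IgG controls from 139.7 to 199.6 CPM with a median of 170.2. Both responders lay below every other tumor, while the ranges of the other groups overlapped. The log2 change of Atp5d against non-responders was -0.63 ± 0.13 (SE, edgeR, adjusted p = 0.00223), a ratio of 0.647.

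Cox8a, the common form of the smallest subunit of complex IV, was at 120.8 and 124.2 CPM in responders, at 156.2 to 189.3 CPM in non-responders (median 171.4) and at 145.2 to 195.3 CPM in IgG controls (median 164.6). Its log2 change was -0.49 ± 0.12 (SE, edgeR, adjusted p = 0.00705). Atp5o, the stalk protein known as OSCP, was at 129.9 and 144.1 CPM in responders and at 167.4 to 212.1 CPM in non-responders (median 197.2). Here too both responders were the lowest of the 16 tumors, and the log2 change was -0.51 (edgeR, adjusted p = 0.0176).

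In complex I, the accessory subunits Ndufa12 and Ndufb9 were among the lower genes. Ndufa12 was at 63.7 and 77.0 CPM in responders and at 92.9 to 113 CPM in non-responders, with a log2 change of -0.55 (edgeR, adjusted p = 0.0130). Ndufb9 was at 70.8 and 81.5 CPM in responders and at 98.8 to 124.9 CPM in non-responders, with a log2 change of -0.55 (edgeR, adjusted p = 0.0155). In complex III, the small subunit Uqcr11 was at 51.1 and 56.4 CPM in responders and at 68.6 to 98.6 CPM in non-responders, with a log2 change of -0.64 (edgeR, adjusted p = 0.0149). For all 3 genes the responders lay below the other 14 tumors.

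Cytochrome c and cytochrome c1 were nearer to the threshold. Cycs, cytochrome c itself, was at 114.6 and 145.3 CPM in responders and at 162.9 to 192.6 CPM in non-responders (log2 change -0.44, edgeR, adjusted p = 0.0498). Replicate 4, an IgG control at 138.0 CPM, fell between the responders. Cyc1, which is cytochrome c1 of complex III, was at 92.9 and 103.4 CPM in responders, below all other tumors (log2 change -0.40, edgeR, adjusted p = 0.0430). Cox6c, the complex IV gene of highest level, was at 213.0 and 243.6 CPM in responders and at 292.0 to 561.8 CPM in non-responders (log2 change -0.83, edgeR, adjusted p = 0.0278). Its high values in non-responders include 561.8 and 524.7 CPM in replicates 9 and 14, the tumors of high mitochondrial share. Ndufb8 and Uqcrh gave log2 changes of -0.35 and -0.10 and did not pass.

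**Figure D2:**
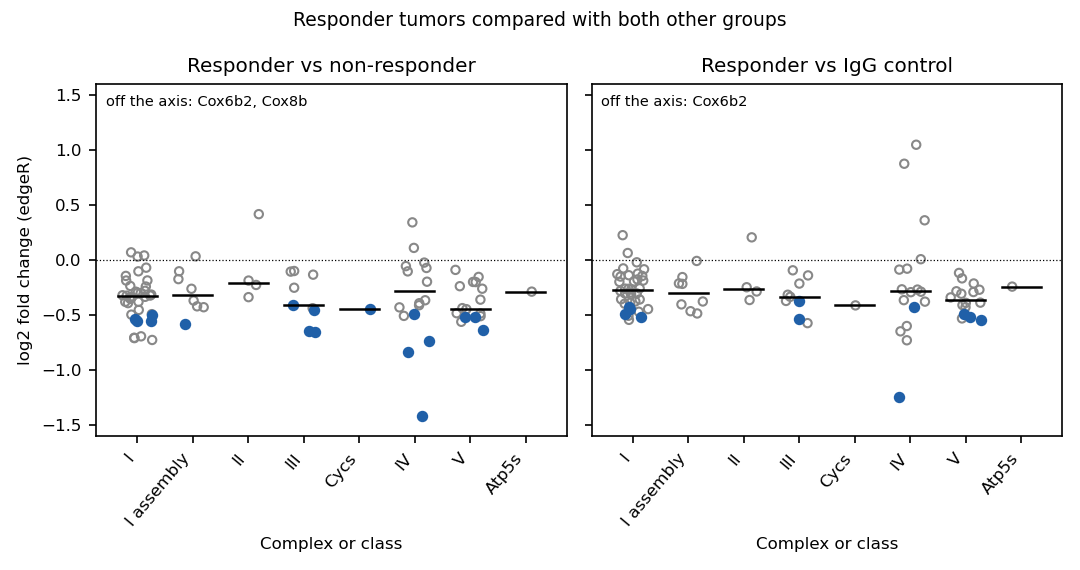
Log2 fold change of each tested member by complex, for responders against non-responders (left) and against IgG controls (right). Filled points passed an adjusted p of 0.05, open points did not, and bars are medians over all tested members of the class. Every filled point is below 0, 17 on the left and 11 on the right.

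Against the 8 IgG control tumors, 11 of 93 members were lower in responders and 0 were higher by edgeR, where 5.17% of all genes were lower and 17.7% higher. The median was -0.29 on the log2 scale over members and -0.02 over all genes, and DESeq2 called 18 lower and 1 higher, against 7.98% and 18.0% of all genes. At an unadjusted p below 0.05, 27 were lower and 1 higher by edgeR, against 11.2% and 22.2% of all genes. Of these 11, 9 were also among the 17 above: Atp5d, Atp5g1, Atp5o, Cox6a2, Cox8a, Cyc1, Ndufa12, Ndufb9 and Uqcr11. Both comparisons share the responder tumors. Atp5d again had the smallest p, with a log2 change of -0.55 (edgeR, adjusted p = 0.00428). Ndufa10, an accessory subunit of complex I, passed against IgG controls and not against non-responders. It was at 66.5 and 73.9 CPM in responders and at 83.8 to 130.6 CPM in IgG controls (log2 change -0.42, edgeR, adjusted p = 0.0456), and replicate 13 was the nearest other tumor at 76.9 CPM.

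These counts, and those over all genes, moved when single libraries were left out. Without responder replicate 15, 0 members were lower in either comparison, as were 0.464% and 0.595% of all genes. Without replicate 16, 8 were lower in each, as were 3.32% and 4.14% of all genes. In these fits the lone responder is assumed to vary like the other groups. Against non-responders the count of lower members was 9, 9, 8 and 10 without replicates 9, 11, 12 and 14, where 3.85%, 4%, 3.49% and 3.38% of all genes were lower. Against IgG controls it was 24 without replicate 1, where 12.3% of all genes were lower. With the study's added limit of a 2-fold change, only Cox6a2 was called lower in both comparisons, where 0.663% and 0.641% of all genes were. Without replicate 15 it did not pass in either, with log2 changes of -1.07 and -0.90, and without replicate 16 these were -2.06 and -1.89.

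Replicates 1, 9 and 14, the tumors of high mitochondrial share, belong to the groups the responders were set against. With these 3 left out, a choice made after the data were seen, 42 members were lower in responders than in non-responders and 1, Cox6b2, was higher, against 14.7% and 17.8% of all genes. Cox6b2 held only 21 and 18 counts in responders and 1 to 11 in the other tumors. A filter of at least 10 counts in at least 8 tumors leaves it out. The median log2 change over members was -0.36. Of the 17 above, 16 passed again, and Ndufaf8 did not (edgeR, adjusted p = 0.0520). Members lower in this fit were 14 of 36 in complex I, 2 of 4 in complex II, 5 of 9 in complex III, 8 of 18 in complex IV and 10 of 16 in complex V, with Cycs and 2 of the 8 assembly factors. Atp5b then gave a log2 change of -0.38 (edgeR, adjusted p = 0.00689), where it had given -0.09 with all tumors, and Atp5a1, the alpha subunit beside it in the catalytic head, gave -0.50 (edgeR, adjusted p = 0.00739). Against IgG controls, 42 members were lower and 1 higher in the same fit, where 19.6% and 22% of all genes were. With all tumors kept and the mitochondrial to nuclear count ratio as a covariate, 52 were lower and 1 higher against non-responders (14% and 18.1% of all genes), and 49 and 1 against IgG controls (17.1% and 21.3% of all genes).

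Other genes of the pathway were counted by list for responders against non-responders with all tumors kept. Of all genes, 4.34% were lower and 15.4% higher there. Of 78 mitochondrial ribosomal protein genes, 20 were lower than in non-responders and 0 higher, with a median log2 change of -0.35. Of the 13 mitochondrially encoded subunits 0 passed by edgeR, 0 also at an unadjusted p below 0.05, and their median was -0.45. Their sum was 54840 and 54510 CPM in replicates 9 and 14, the non-responders of high mitochondrial share. In the other non-responders it was 24150 to 30440 CPM, a range that holds both responders, at 25660 and 29840 CPM. Among 39 assembly factors outside the naming rule, 3 were lower (Tmem70, Sco2 and Cmc1) and 0 higher, with a median of -0.15. The 13 tricarboxylic acid cycle genes had a median of -0.09. Only Ogdh, a subunit of the 2-oxoglutarate dehydrogenase complex, passed, and it was higher in responders (log2 change 0.65, edgeR, adjusted p = 0.0184). Of 17 glycolysis genes, 16 had a log2 change below 0, and the median was -0.38. Only Gapdh of these passed, and it was lower (log2 change -0.61, edgeR, adjusted p = 0.0134). Of 14 regulators of mitochondrial biogenesis, Ppargc1a, the coactivator PGC-1alpha, was higher at 1.40 CPM against 0.108 CPM in non-responders (edgeR, adjusted p = 0.00141), and the transcription factor Myc was lower (log2 change -0.76, edgeR, adjusted p = 0.0229). Adipocyte markers were also higher in responders, as given above, and their part in the value of Ppargc1a was not tested. Outside mitochondria, 13 of 81 cytosolic ribosomal protein genes were lower and 0 higher, with a median of -0.39, and 2 of 5 proliferation markers were lower.

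The comparison of non-responders with IgG controls asked whether aPD-1 moved the members in tumors without a CD8 response. By edgeR, 0 of 93 members passed in either direction, and 0% of all genes were lower and 0% higher. An unadjusted p below 0.05 by edgeR was found for 1 member (Ndufa2) and for 694 of all 18251 genes. DESeq2 called 0 members, with 0 at an unadjusted p below 0.05. The median was 0.06 on the log2 scale over members and -0.01 over all genes. Sdha had a log2 change of -0.21, Cycs 0.03 and Atp5d 0.08. For all 8 aPD-1 tumors against the 8 IgG controls, 0 members passed by edgeR, where 0.0438% of all genes were lower and 2.4% higher. An unadjusted p below 0.05 by edgeR was found for 2 members and for 2515 of all 18251 genes. By DESeq2 0 members passed, with 4 at an unadjusted p below 0.05. The share of all genes at an unadjusted p by DESeq2 is not given here for either comparison.

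Several complex IV subunits, and the related Ndufa4, come in pairs of a common form and a second form known from muscle, testis or lung or from low oxygen. The second forms were rare in these tumors, with Cox6a2 as the exception. Cox8c was at 0 counts in all 16 tumors, and Cox7b2 was at most at 0.0864 CPM. Per length, Cox4i2, a form known from lung, made up 0.112% to 0.461% of its pair with Cox4i1, and Cox6b2, known from testis, 0.0228% to 0.703% of its pair with Cox6b1. Ndufa4l2, a form known to follow hypoxia, made up 0.334% to 2.39% of its pair with Ndufa4.

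Cox6a2, the heart and skeletal muscle form of subunit VIa, made up 3.36% to 15.1% of its pair with Cox6a1 and had counts in every tumor (chromosome 7, 128205435 to 128206387, GRCm38). It stood at 3.37 and 6.78 CPM in responders. Non-responders held 10.5 to 18.05 CPM with a median of 13.6, and IgG controls 7.64 to 19.7 CPM with a median of 9.81. Both responders were below every other tumor. The log2 change of Cox6a2 was -1.42 ± 0.41 against non-responders (SE, edgeR, adjusted p = 0.0204) and -1.24 ± 0.39 against IgG controls (SE, edgeR, adjusted p = 0.0304). Cox6a1 was at 81.4 and 85.0 CPM in responders and at 94.2 to 118 CPM in non-responders, with a log2 change of -0.39 that did not pass (edgeR, adjusted p = 0.132).

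The other muscle forms did not share the pattern of Cox6a2. Cox8b was at 2.70 CPM in IgG control replicate 6 and at 1.27 and 0.309 CPM in responders, and at 0.169 CPM or less in the other 13 tumors. Cox7a1 was at 1.61 CPM in the same replicate 6 and between 0.0771 and 0.480 CPM elsewhere. Replicate 6 also held 2131 CPM of 8 skeletal muscle markers, against 3.38 to 79.9 CPM in the other 15 tumors. Cox6a2 was at 19.73 CPM in replicate 6 and at 19.72 CPM in replicate 1, where the muscle markers summed to 3.38 CPM. The share of muscle tissue in these values was not tested. Cox6b2 was at 0.621 and 0.506 CPM in responders and at 0.336 CPM or less in the other tumors, and its log2 change of 1.90 against non-responders did not pass (edgeR, adjusted p = 0.0619).

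**Figure D3:**
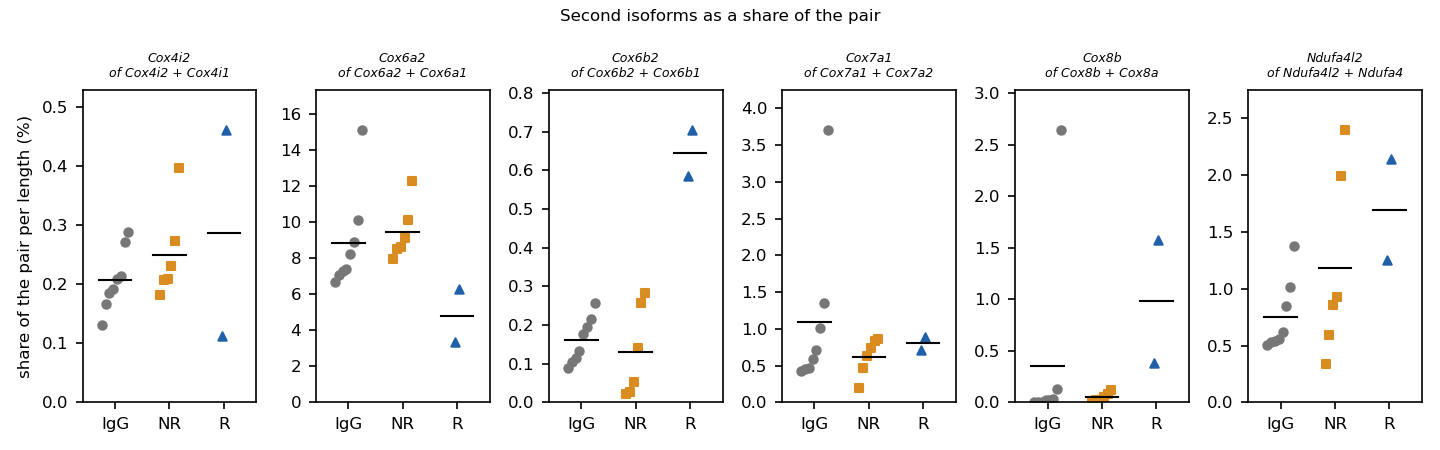
Share of the second isoform in its pair, in percent of CPM per kilobase summed over both genes, for 6 pairs (panels, each axis from 0). Points are tumors of the IgG control, non-responder (NR) and responder (R) groups, and bars are group means. Cox6a2 has the highest shares of the 6, 3.36% and 6.27% in responders and 6.71% or more elsewhere, and replicate 6 is highest for Cox7a1 (3.70%) and Cox8b (2.64%).

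Among the common forms, few passed. Cox4i1, the main regulatory subunit of complex IV, ranged from 293.7 to 390.7 CPM over all tumors, with log2 changes of -0.07 and -0.08 in the responder comparisons, and neither passed. Cox7a2 had a log2 change of -0.41 (edgeR, adjusted p = 0.0717) and Cox7b one of -0.73 that passed (edgeR, adjusted p = 0.0447), at 69.6 and 80.3 CPM in responders against 95.2 to 170.5 CPM in non-responders. Cox7a2l, a related gene and not the common form of a pair, was at 155.5 and 160.0 CPM in responders. It was at 121.4 to 190.3 CPM in non-responders, with a log2 change of -0.02. Cox6b1 and Ndufa4 had log2 changes of -0.36 and -0.19, and neither passed.

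No difference in mitochondrial share between the groups passed a test. It was 3.36% ± 1.73 in IgG controls (SD, n = 8), 3.85% ± 1.58 in non-responders (SD, n = 6) and 3.05% ± 0.286 in responders (SD, n = 2). Exact permutation tests, two-sided, gave p = 0.857 for responders against non-responders, p = 0.956 against IgG controls, p = 0.602 for non-responders against IgG controls and p = 0.770 for all aPD-1 tumors, each 0.956 after adjustment over the 4. With 2 against 6 tumors the smallest p this test can give is 0.0357. Counting error is far smaller than these differences, as the 95% Wilson interval of replicate 1 ran from 7.59% to 7.61%.

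As the share fell into 1 cluster of 3 tumors and 1 of 13, no correlation was pooled. Over the 13 tumors of lower share, the mean log2 level of members and the mitochondrial share had Pearson r = -0.197 and Spearman rho = -0.181, given as a description. Leaving out replicates 16 and 3, the farthest from the median share, turned r to 0.305, and without replicate 16 alone it was 0.0123. Both measures come from the same libraries, and the sign of r changed with these tumors. By complex, r over the 13 ran from -0.317 for complex II to -0.0968 for complex IV.

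Across all 16 tumors, each gene was also fitted with the log2 ratio of mitochondrial to nuclear counts beside the group, with mitochondrial genes left out of the table. The slope is then the log2 change of a gene per doubling of the ratio. Of 93 members, 34 had a slope above 0 and 17 a slope below 0 that passed, where 25.3% of all 18269 nuclear genes were higher and 23.9% lower. The slopes rest on replicates 1, 9 and 14. Without those 3, 0 of 93 passed by edgeR, with 0 at an unadjusted p below 0.05, and 0% of all genes did. Without replicate 1 alone, 21 were higher and 12 lower, against 13.5% and 14.1% of all genes. With IgG control tumors only, where replicate 1 is the single tumor of high share, 27 were higher and 15 lower of 90 tested, against 22.7% and 25.3% of all genes.

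By complex, the counts can be read against the same shares of all genes. In complex I, 19 of 36 were higher and 2 lower. In complex II, 0 were higher and 2 of 4 lower, and in complex III 3 of 9 were higher and 2 lower. In complex IV, 6 of 18 were higher and 4 lower, and in complex V 5 of 16 were higher and 5 lower. All 3 tumors of high share lay above the other 13 for 23 members and below them for 11, where 12.4% and 12.7% of all genes did.

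In complex II, Sdha and Sdhd were on the low side and their partners were not. Sdha, the flavoprotein subunit that oxidizes succinate (chromosome 13, 74322254 to 74350280, GRCm38), was at 76.0, 93.2 and 106.8 CPM in replicates 1, 9 and 14 and at 161.4 to 212.6 CPM in the other 13 (median 174.7). These 3 values were 43.5%, 53.4% and 61.1% of that median, the lowest in the tumor of highest share. The slope of Sdha was -0.72 ± 0.07 (SE, edgeR, adjusted p = 7.37e-07). Sdhd, a membrane anchor of the same complex, was at 61.8, 68.5 and 80.5 CPM against 89.9 to 154.2 CPM (median 123.1), with a slope of -0.62 (edgeR, adjusted p = 3.14e-05). Sdhb, the iron-sulfur subunit, was at 96.0, 111.2 and 108.3 CPM, within the range of 82.6 to 126.2 CPM of the others, and Sdhc was at 86.1 to 100.7 CPM, within theirs of 85.4 to 115.1 CPM. Neither passed, with slopes of 0.03 and -0.07.

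Complex V had members on both sides. Atp5b was at 380.9, 521.9 and 594.8 CPM in replicates 1, 9 and 14 and at 785.6 to 1167 CPM elsewhere (median 1055), with a slope of -0.84 ± 0.08 (SE, edgeR, adjusted p = 1.09e-06). Atp5a1 was at 353.6, 450.6 and 469.6 CPM against 595.9 to 1058 CPM, with a slope of -0.80 (edgeR, adjusted p = 3.71e-06). Atp5g2, 1 of 3 genes for the rotor subunit c, was at 127.6, 153.3 and 176.5 CPM, with a slope of -0.54 (edgeR, adjusted p = 0.000159), while the responders at 155.8 and 174.6 CPM overlapped these 3. Its sister genes Atp5g1 and Atp5g3 had slopes of -0.11 and -0.02 and did not pass. In the other direction, Atp5e, the epsilon subunit of the central stalk, was at 172.2, 133.5 and 113.7 CPM against 66.7 to 98 CPM, with a slope of 0.60 ± 0.08 (SE, edgeR, adjusted p = 1.85e-05). Atp5j, coupling factor 6 of the outer stalk, was at 152.9, 162.8 and 142.0 CPM against 79.8 to 105.0 CPM, with a slope of 0.52 (edgeR, adjusted p = 1.75e-05). The other stalk subunits did not all follow these 2. Atp5d and Atp5o had slopes of 0.13 and 0.01 that did not pass. Atp5h, of the outer stalk, was at 312.7, 310.8 and 275.5 CPM against 160.0 to 251.4 CPM. Atp5c1, of the central stalk, was on the low side, at 155.3, 164.5 and 176.3 CPM against 175.9 to 283.4 CPM (median 215.9). So was Atp5f1, of the outer stalk, at 130.8, 185.6 and 201.1 CPM against 178.1 to 300.7 CPM (median 223.5). For both genes the 2 ranges overlapped.

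In complex I, 2 of the core subunits that take part in electron transfer were lower. Ndufs1, a core subunit that carries iron-sulfur clusters, was at 51.0, 57.6 and 66.8 CPM in replicates 1, 9 and 14 and at 84.4 to 121.6 CPM elsewhere, with a slope of -0.59 (edgeR, adjusted p = 2.52e-05). The other lower gene was Ndufv1, which binds NADH, with a slope of -0.35 (edgeR, adjusted p = 0.000856). Ndufb7, a small accessory subunit, was at 100.1, 81.9 and 72.1 CPM against 48.5 to 61.4 CPM, with a slope of 0.53 (edgeR, adjusted p = 2.09e-06). Ndufa5 was at 45.3, 41.9 and 31.1 CPM against 15.1 to 25.7 CPM and had the highest slope of the members, 0.73 ± 0.10 (SE, edgeR, adjusted p = 1.48e-05). Ndufv3 and Ndufa13, 2 further accessory subunits, had slopes of 0.51 and 0.54. Ndufs8, a core iron-sulfur subunit, was at 74.8, 76.3 and 62.6 CPM against 31.8 to 54.9 CPM, with a slope of 0.57 (edgeR, adjusted p = 0.000112).

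**Figure D4:**
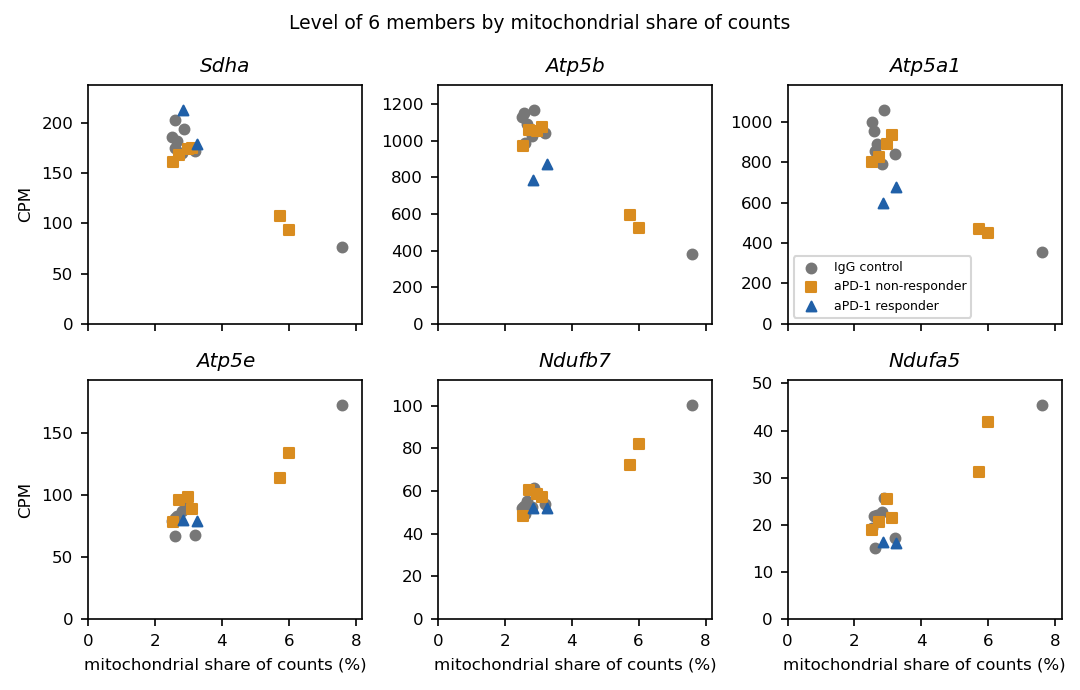
CPM of Sdha, Atp5b and Atp5a1 (top) and of Atp5e, Ndufb7 and Ndufa5 (bottom) against the mitochondrial share of counts in percent, 1 point per tumor, colored by group. The 3 tumors at 5.74% to 7.60% lie below the other 13 in the top panels and above them in the bottom panels.

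In the remaining named members, Cycs, Cyc1, Ndufb8 and Uqcrh had slopes of -0.01, -0.11, -0.01 and 0.17, and none passed. Among isoforms and related genes, Cox6a1 and Cox6b1 had slopes of 0.30 and 0.25 and Cox7b and Cox6c of 0.49 and 0.50, all passing. Cox7a2l and Ndufa4 had slopes of -0.33 and -0.34, and Ndufa4l2 had the lowest slope that passed, -1.04 (edgeR, adjusted p = 0.0198), at 0.570, 0.977 and 0.406 CPM in the 3 tumors. Without replicate 14 it did not pass (slope -0.85, edgeR, adjusted p = 0.0671). Cox8b had a slope of -3.77 that did not pass, and it was -1.50 without replicate 6 and -6.45 without replicate 9. Cox4i1, Cox4i2, Cox6a2, Cox6b2, Cox7a1, Cox7a2 and Cox8a did not pass.

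Slopes were also set against the length of the coding sequence. Over the 93 members, the slope and the coding length of the principal transcript had a Spearman rho of -0.453, against -0.0442 over the 14652 other protein-coding genes tested. It was -0.724 among the 16 genes of complex V, -0.633 among the 9 of complex III, -0.416 among the 36 of complex I and -0.115 among the 18 of complex IV. Of the 31 members of at most 330 bases, 16 were higher and 2 lower. Of the 31 members of 528 to 2181 bases, 5 were higher and 11 lower. Among other protein-coding genes, 31.0% of the shorter class were higher and 14.8% lower, and of the longer class 22.2% were higher and 29.0% lower. With the length of the whole principal transcript, rho was weaker over members, at -0.336, and stronger over the other protein-coding genes, at -0.142. By complex it was then -0.609 for complex V, -0.5 for complex III, -0.161 for complex I and 0.0733 for complex IV. With GC content of the transcript the members had a rho of 0.0777 and the other genes with a value 0.329. These are correlations across genes that share the same 16 libraries, and genes are not independent replicates.

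**Figure D5:**
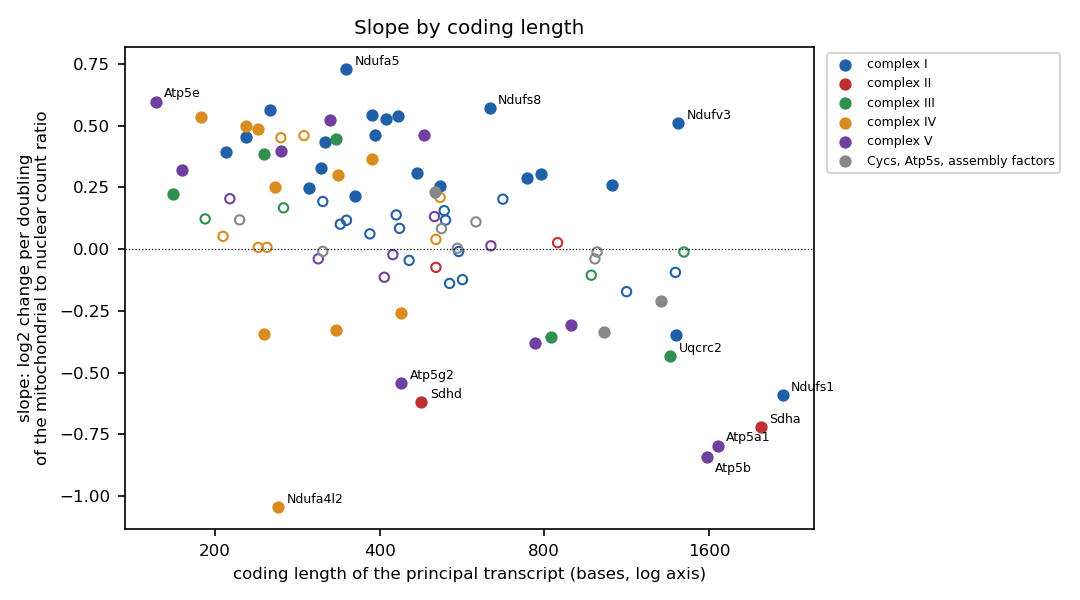
Slope on the mitochondrial to nuclear count ratio (log2 change per doubling) against the coding length of the principal transcript in bases (log axis), 1 point per member, colored by complex. Filled points passed an adjusted p of 0.05. Atp5b, Atp5a1, Sdha and Ndufs1 form the long, low end and Atp5e is the shortest. Cox8b, with a slope of -3.77, is off the axis.

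Slopes of other genes of the pathway were counted by list, where 25.3% of all nuclear genes were higher and 23.9% lower. Of 13 tricarboxylic acid cycle genes, 8 had a slope below 0 that passed and 0 above, with a median of -0.31. Of 78 mitochondrial ribosomal protein genes, 26 were higher and 16 lower, and of 81 cytosolic ribosomal protein genes 49 were higher and 5 lower, with a median of 0.28. Of 39 assembly factors outside the naming rule, 12 were higher and 7 lower. Of 17 glycolysis genes, 2 were higher and 6 lower. All 4 endothelial markers and 3 of 5 macrophage markers had slopes below 0 that passed, and 1 macrophage marker had a slope above 0 that did. Slopes below 0 also passed for 2 of 5 proliferation, 1 of 5 T cell and 1 of 5 adipocyte markers. Among 5 fibroblast markers 1 was lower and 1 higher, and 1 keratinocyte and 1 cardiac muscle marker were higher. For B cell, skeletal muscle and colon epithelial markers 0 passed. The part of these cells, of library depth, or of RNA length and quality, in the slopes was not tested.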

How the data were processed

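Poly(A) RNA of 2 sections of 100 µm per fresh frozen tumor was sequenced by the authors. Per the labels and the methods, reads were aligned to GRCm38 with STAR 2.6 and quantified over Ensembl genes with RSEM 1.3.0 by the authors. Their deposited table holds expected counts that were not normalized, and 7.84% were not whole, so they were rounded. Reads that fit several genes are divided between them, which makes Cox and Ndufa isoforms and members with pseudogenes less certain, and Gapdh too. P-values measure the spread between tumors, each from its own mouse. Spike-in entries, 92 in all with at most 185 counts in a tumor, were left out. Symbols, principal transcripts and lengths came from GENCODE release M21 (GRCm38), and 53360 identifiers matched.

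Tests between groups used edgeR 4.0.16 under R 4.3.3 (TMM, low-count filter over the 3 groups, robust quasi-likelihood fit of all 16 tumors, Benjamini-Hochberg over all genes tested). The combined aPD-1 contrast weighted non-responders and responders by number. The slope fit added the log2 ratio of mitochondrial to nuclear counts. Mean levels used log2 CPM with a prior count of 2. Shares were compared by exact permutation tests, and intervals are 95% Wilson intervals that cover counting error only. Python 3.11.15 with numpy 2.4.6, pandas 2.3.3, scipy 1.17.1 and matplotlib 3.10.9 served the rest. The steps were tested on simulated counts. No 2 libraries were alike within sampling noise, since chi-square divided by its degrees of freedom was at least 16.5 in each of 120 pairs.

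The members, lists and alternatives were chosen with earlier results of these data known. Named genes were up to 6 of smallest p in each direction per comparison, the isoforms, the highest gene of complexes I, III, IV and V per length, all Sdh genes, Cyc1, Cycs, the 3 highest and 3 lowest slopes, and the highest and lowest change per comparison, with up to 3 genes of smallest p from other lists. Ndufv1, Ndufa2, Ndufa10, Ndufaf8, Ndufc2, Uqcr10, Uqcrq, Atp5c1, Atp5f1, Atp5g1, Atp5g3 and Atp5h fall outside it in at least 1 place. They were named there after their values were seen, to complete a count, a gene family or the stalk subunits. The correlation was planned over 16 tumors and is given over 13, because the share forms 2 clusters. Alternatives were DESeq2 1.42.0, other size factors, filters, denominators and sample sets, and leaving out each tumor. Spatial data were not used here. The values of 1 member are not reported here by name, and it is counted in the totals.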

Additional observations from a re-analysis of the deposited data

Results flagged for a closer look

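In each group of 4 to 10 tumors, a tumor far from the others was looked for among the mitochondrial share, the mean levels and the named members. This was so in 20 of 94 groups tested, 14 of them from 1 library. Chance alone gives such a tumor in about 1 in 20 groups that were not chosen by their values. That rate cannot be set against the count here, because many named members were chosen by their slope on the mitochondrial ratio. Replicate 1 has the highest ratio, so a far value of replicate 1 in such members follows in part from that choice. All members listed next for this replicate except Cox6a1 were named by the slope fit. IgG control replicate 1 was far from the other IgG controls for the mitochondrial share (7.60%) and for the mean level of complex II (6.46 on the log2 CPM scale). The same replicate was low for Atp5a1 (354 CPM), Atp5b (381 CPM), Atp5g2 (128 CPM), Ndufs1 (51.0 CPM) and Sdha (76.0 CPM). It was high for Atp5e (172 CPM), Atp5j (153 CPM), Cox6a1 (148 CPM), Ndufa13 (98.2 CPM), Ndufa5 (45.3 CPM), Ndufb7 (100.1 CPM) and Ndufv3 (66.7 CPM). These values come from 1 library and are not separate events.

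IgG control replicate 6 was far above its group for Cox7a1 (1.61 CPM) and Cox8b (2.70 CPM), and replicate 7 for Atp5o (246 CPM). Among non-responders, replicate 13 was low for the mean level of all members (5.67 on the log2 CPM scale) and of complex III (6.56), and replicate 11 was high for Cyc1 (155 CPM).

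Spike-in (ERCC) entries, which no comparison used, had more counts than the 3 that a count of 0 allows in 4 tumors. They held 33 counts in IgG control replicate 3, 185 in replicate 4, 48 in non-responder replicate 12 and 163 in responder replicate 15.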

How the results depend on the processing

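No paired analysis was possible because the tumors carry 16 different numbers, 1 per mouse. Against non-responders, 17 members were lower and 0 higher, where 4.34% and 15.4% of all genes were. The lower count was 11 with median-of-ratios size factors (4.19% of all genes) and 8 with at least 10 counts in at least 8 tumors (3.94%). It was 42 without the 3 tumors of high mitochondrial share (14.7%) and 52 with the mitochondrial ratio as a covariate (14%). The higher count was 1 in the last 2 settings (17.8% and 18.1% of all genes), with DESeq2 (15.9%) and with only the groups compared (14.7%). Leaving out 1 tumor gave 0 to 20 lower and 0 to 1 higher. Against IgG controls, 11 were lower and 0 higher, where 5.17% and 17.7% of all genes were. The lower count was 18 with DESeq2 (7.98% of all genes) and 6 with only the groups compared (3.18%). It was 42 without the 3 tumors of high mitochondrial share (19.6%) and 49 with the covariate (17.1%). The higher count was 1 in these 4 settings, where 17% to 22% of all genes were higher. Leaving out 1 tumor gave 0 to 24 lower and 0 to 1 higher. For all aPD-1 tumors, 1 member was lower with the covariate in place of 0, where 0.52% of all genes were lower in place of 0.0438%. The slope counts (34 higher, 17 lower) were 0 and 0 without the 3 tumors, and 21 to 36 higher and 12 to 19 lower with 1 tumor left out. The cause of these shifts was not tested.

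Without the 3 tumors, slopes changed sign for Atp5b (0.14), Atp5a1 (0.15), Ndufs1 (0.078), Sdhd (0.15), Atp5g2 (0.46) and Atp5j (-0.14), and none of these passed. Cox8b turned to 0.59 for non-responders against IgG controls and to 1.51 for all aPD-1 tumors with DESeq2, and ranged from -3.09 to 0.61 and from -2.05 to 1.52 with 1 tumor left out. The correlation over 13 tumors was 0.305 without the 2 farthest tumors and ranged from -0.303 to 0.0123 with 1 tumor left out. The difference in mitochondrial share between responders and IgG controls ranged from -0.516 to 0.293 percentage points, and that of all aPD-1 tumors from -0.049 to 0.893. Only 2 responders limit what any of these fits can detect.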
